A study of Solanum lycopersicum and Solanum pennellii and Solanum pimpinellifolium with 52 samples.

Results

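The 60 gene models described here stood highest in the vegetative meristem relative to every other tissue in a survey of tomato and a wild relative. They were taken from 28298 gene models in the deposited expression table, of which 25942 held reads in at least one of 52 RNA-seq libraries. Each gene model received a score, the log2 ratio of its mean in 4 vegetative meristem libraries to its largest mean in the 5 other tissues, with 1 RPKM (reads scaled by gene length and by library size) added to both. The 60 highest scores were kept. The members were thus chosen by their levels across tissues, and those levels are given as a description with no test.

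The study had a tissue experiment and a seedling experiment, both on Solanum. In the tissue experiment, Solanum pennellii LA716 (penn) and cultivated tomato, Solanum lycopersicum LA3475 (M82), were each sampled as vegetative meristem, seedling, leaf, inflorescence (labelled floral), stem and root. Plants of both species were kept under simulated shade (red:far-red 0.48) or simulated sun (red:far-red 3.1), both at 95 µE, and each of the 24 combinations of species, tissue and light was sequenced as 1 library. In the seedling experiment, seedlings grown on plates under light labelled standard gave 7 libraries each of S. pennellii LA716 (SPE), S. habrochaites LA1777 (SHA), S. pimpinellifolium LA1589 (SPI) and S. lycopersicum LA3475 (SLY). RNA was taken with Trizol in the tissue experiment and with a Qiagen plant kit in the seedling experiment, and the labels do not say whether libraries came from separate plants or pools, so p-values here reflect library-to-library spread that could be technical.

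The vegetative shoot meristem is the dome of dividing cells at the shoot tip that renews itself and forms leaves and stem tissue, and dissected tips usually carry young leaf primordia. Seedlings hold a shoot apex among many other tissues, while expanded leaves and mature stem hold few dividing cells. In such whole-tissue samples, fewer cells of a type and less RNA per cell cannot be told apart. Solanum pennellii is a wild species of dry habitats, S. habrochaites a wild species of Andean slopes, and S. pimpinellifolium the closest wild relative of cultivated tomato.

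Libraries held between 1477052 and 5556059 reads, with a median of 2309105, so that 1 RPKM stood for about 2.12 reads of a gene model of median length. The seedling libraries carry run record numbers in separate ranges, called run blocks here, with 14 libraries in block 1, 12 in block 2 and 2 S. habrochaites libraries in block 3. What a block stands for is not stated. The 28298 IDs are not paired with gene names in the table, and 0 of them matched the RefSeq gene table for assembly SLM_r2.1. Members are therefore given by ID with no role, and the tissue label was not checked against named marker genes.

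The score of the 60 members ran from 1.15 to 2.48, which on the scale with 1 RPKM added is a 2.21-fold to 5.57-fold excess over the next highest tissue. Solyc09g075470.2.1 had the highest score. Its vegetative meristem level was 12.9 RPKM under shade and 3.68 RPKM under sun in S. pennellii, and 19.7 RPKM under shade and 1.97 RPKM under sun in M82. Both shade libraries were above both sun libraries, and the mean of 9.55 ± 8.29 RPKM (SD, n = 4) stood above the next tissue, inflorescence, at 0.896 RPKM. Solyc02g079490.2.1 had the second highest score, with 9.93 and 10.5 RPKM in the shade and sun meristems of S. pennellii and 19.96 and 9.99 RPKM in those of M82. The M82 shade library lay above its other 3, which were close together. No read of Solyc02g079490.2.1 was found in any leaf or root library.

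Most members were expressed at a moderate level. The vegetative meristem mean ranged from 2.95 to 944 RPKM with a median of 30.4 RPKM, and was under 10 RPKM for 13 members and at least 100 RPKM for 14. The most abundant member, Solyc02g086740.1.1, had 956 and 1205 RPKM in the shade and sun meristems of S. pennellii and 823 and 793 RPKM in those of M82. Solyc04g054740.2.1 followed with 798 and 822 RPKM in S. pennellii and 1222 and 811 RPKM in M82. These 2 members were also found in all other tissues of the survey, at 18.8 RPKM or more for Solyc02g086740.1.1 and at 1.83 RPKM or more for Solyc04g054740.2.1. At the low end, 16 members rested on fewer than 100 reads in the 4 meristem libraries together, and the least covered on 9.

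The edge of the list was narrow. The members ranked 59 and 60, Solyc07g042440.2.1 and Solyc05g009370.2.1, had meristem means of 290 ± 80.7 RPKM and 284 ± 47.3 RPKM (SD, n = 4), against 130 RPKM in leaf and 128 RPKM in seedling as their next tissues. The gene models just outside, Solyc02g067550.1.1 at 4.37 ± 2.93 RPKM and Solyc06g083560.2.1 at 8.23 ± 6.12 RPKM in the meristem, had scores of 1.145 and 1.14, against 1.147 for both members at the edge.

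The next highest tissue was seedling for 26 members, leaf for 18, inflorescence for 12, root for 3 and stem for 1. Over the 60 members the median level was 30.4 RPKM in vegetative meristem, 8.36 RPKM in seedling, 6.16 RPKM in leaf, 4.69 RPKM in inflorescence, 1.75 RPKM in stem and 1.31 RPKM in root. Root held less than 10% of the meristem level for 47 members (78.3%), against 8.004% of the 21602 gene models with a mean of at least 1 RPKM in some tissue. Stem held less than 10% for 41 members (68.3%, against 6.50%), and both did for 34 members (56.7%, against 2.74%). Root and stem entered the score, which favoured members low in them. These shares therefore describe the choice of members and are not read as an excess.

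**Figure D1:**
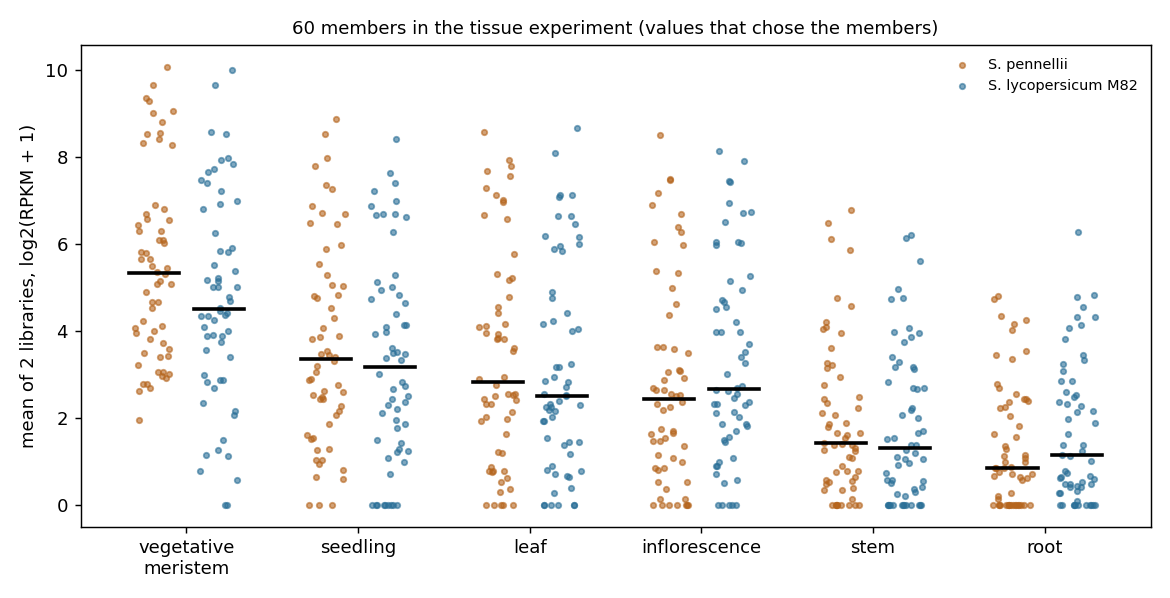
Level of each of the 60 members in each tissue, S. pennellii left of M82, as the mean of the shade and sun libraries on a log2(RPKM + 1) axis; points are members and bars are medians over members. The values chose the members, and the bars are highest in vegetative meristem and lowest in root in both species.

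Vegetative meristem was the highest of the 6 tissues for 59 members in S. pennellii and for 50 in M82, and for 49 in both. Within the 6 libraries of a species and light treatment, the meristem library was the highest for 59 members in S. pennellii shade and 58 in S. pennellii sun, and for 51 in M82 shade and 41 in M82 sun. It was the highest in all 4 sets for 36 members. No member was at 0 in either S. pennellii meristem library, whereas 2 were at 0 in the M82 shade meristem and 7 in the M82 sun meristem.

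Members lay on all of chromosomes 1 to 12, as read from their IDs, with between 3 and 8 on each. Apart from 1 pair of members, Solyc10g005400.2.1 and Solyc10g005470.2.1, no member lay within 100 ID numbers of another on its chromosome. The gene length implied by the value of 1 read had a median of 590 bases over the members and ranged from 162 to 2316, against a median of 972 among expressed gene models. Of the members, 25 were shorter than 500 bases, a length below which 21.7% of expressed gene models fell.

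The seedling libraries took no part in choosing the members, and all 60 had reads in at least one of the 28. The seedling mean over all libraries ranged from 0.288 to 849 RPKM with a median of 23.3 RPKM, and 43 members had reads in every library. The highest seedling means were again those of Solyc02g086740.1.1 at 849 RPKM and Solyc04g054740.2.1 at 455 RPKM, and the lowest those of Solyc01g006570.1.1 at 0.288 RPKM and Solyc03g098650.2.1 at 0.459 RPKM. Across members, the order of levels was close to that in the meristem: Pearson's r between the log2 means was 0.942 and Spearman's rho 0.923 (60 members, a description across genes that share libraries).

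For 50 members the meristem mean was above the mean of the 28 seedling libraries. The median member stood at 67.7% of its meristem level in those seedlings, but at 30.1% in the seedlings of the tissue experiment, and 59 of 60 members were higher in the seedling experiment. Within an accession the ranges met. The median over the 60 members was 10.05 to 30.5 RPKM in the 7 SPE libraries, and 7.13 RPKM under shade and 10.2 RPKM under sun in the S. pennellii seedlings of the tissue experiment. It was 8.81 to 35.01 RPKM in the 7 SLY libraries, and 11.3 and 5.70 RPKM in the M82 seedlings. By mean, 51 members were higher in the seedling experiment in S. pennellii and 55 in S. lycopersicum. Light, culture and extraction kit differed together between the experiments and cannot be told apart. The seedlings of the tissue experiment also entered the score, which favoured members low in them. The gaps are therefore no independent result, and no shares over all gene models are given for these counts.

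Among seedlings, the members' level split by run block. The median over the 60 members was 18.1 to 35.01 RPKM in the 14 libraries of block 1, and 6.73 to 17.4 RPKM in the 12 libraries of block 2, with no overlap. The 2 libraries of block 3 had 10.8 and 12.99 RPKM. The split was present in each species: 22.3 to 30.5 RPKM in block 1 against 10.05 to 13.04 RPKM in block 2 for S. pennellii, 18.1 to 28.5 against 6.73 to 10.9 RPKM for S. habrochaites, 21.04 to 34.6 against 9.42 to 12.2 RPKM for S. pimpinellifolium, and 31.9 to 35.01 against 8.81 to 17.4 RPKM for S. lycopersicum. Over all gene models tested, the library median was 11.01 to 14.8 RPKM in block 1 and 7.64 to 11.9 RPKM in block 2. Depth overlapped between the blocks, with 1650214 to 3560237 reads in block 1 and 1599456 to 2494439 in block 2, and its part in the result was not tested.

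**Figure D2:**
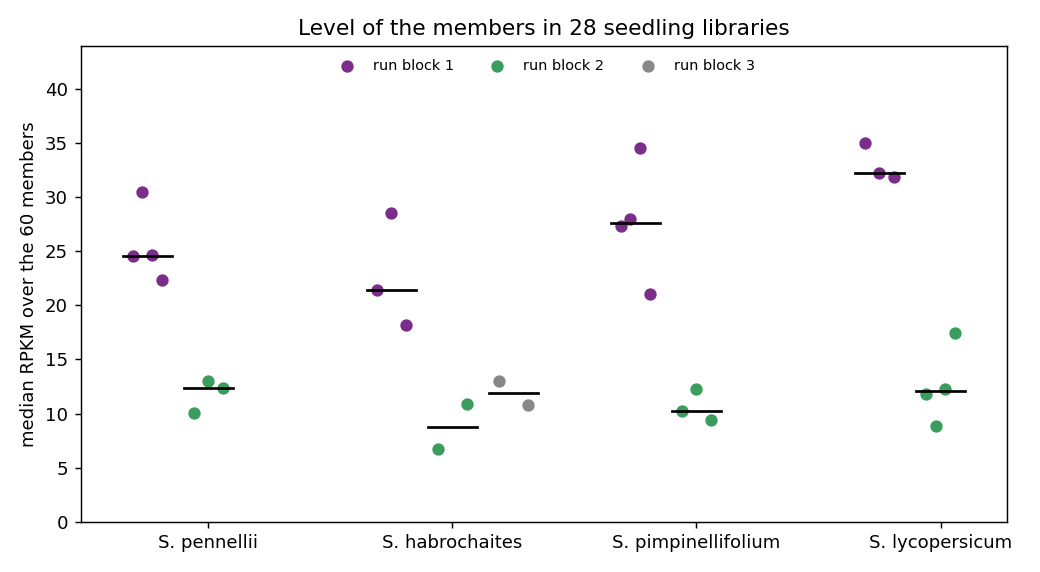
Median level over the 60 members in each of the 28 seedling libraries, in RPKM, by species and run block; points are libraries and bars are the median of a block. In each of the 4 species every block 1 library lies above every block 2 library.

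A comparison of the blocks was added after this split had been seen. It used limma on log2(RPKM + 1) with species in the model and called a gene model changed at a Benjamini-Hochberg adjusted p under 0.05 and a log2 difference of at least 1 in size. The test covered the 57 members with at least 1 RPKM in 7 or more seedling libraries; Solyc08g062430.1.1, Solyc01g006570.1.1 and Solyc03g098650.2.1 did not reach that level. Of the 57, 29 were called, against 7.92% of all 19536 gene models tested: 28 rose in block 1, against 7.36%, and 1 fell, against 0.568%. The median log2 difference, block 1 minus block 2, was 0.91 over the 57 members and 0.27 over all gene models, and 54 members were above 0. With median-ratio scaling 21 members rose, against 4.32% of all gene models, and 1 fell, against 1.45% (median 0.72, against 0.07 over all gene models). With quantile normalization 22 rose, against 3.5%, and 1 fell, against 1.33% (median 0.67, against -0.02).

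Solyc08g043180.2.1 had 42.2, 56.2 and 72.1 RPKM as lowest, median and highest values in block 1, and 7.20, 11.6 and 21.3 RPKM in block 2. All 14 libraries of block 1 lay above all 12 of block 2, a 4.37-fold difference in the mean (log2 difference 2.14 ± 0.14 SE, limma adjusted p = 5.3e-12). Solyc09g082190.1.1, the member with the largest log2 difference that rose, averaged 14.2 ± 6.09 RPKM in block 1 (SD, n = 14) and 2.67 ± 2.42 RPKM in block 2 (SD, n = 12), with some overlap (log2 difference 2.398 ± 0.32 SE, limma adjusted p = 6.1e-07). Solyc03g007030.2.1 was the member that fell. It averaged 124 ± 70.9 RPKM in block 1 and 315 ± 191 RPKM in block 2 (SD), and the blocks overlapped (log2 difference -1.26 ± 0.27 SE, limma adjusted p = 0.00032).

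Within a species, block 1 stood wholly above block 2 for 33 of the 57 members in S. pennellii, 39 in S. habrochaites, 33 in S. pimpinellifolium and 38 in S. lycopersicum. The same held for 22.8%, 44.5%, 21.4% and 23.6% of all gene models tested in those species. Block 1 stood wholly below block 2 for 0, 1, 2 and 1 members in the same order of species, against 4.69%, 8.44%, 7.29% and 6.01% of gene models.

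Members with leaf as their next tissue rose in block 1 in 11 of 16 cases (median log2 difference 1.36), those with seedling in 10 of 26 (0.73) and those with inflorescence in 5 of 12 (0.88). By meristem level, 8 of 14 members at 100 RPKM or more rose, 18 of 33 between 10 and 100 RPKM, and 2 of 10 below 10 RPKM. Over all gene models tested, 7.36% rose. No shares are given over gene models of the same tissue profile or level. The groups were formed from values that chose the members, and the log2(RPKM + 1) scale understates changes of low genes. The differences between these groups of members were not tested.

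Members also varied together from library to library. After subtraction of each species' mean, the median Pearson's r between 2 members over the 28 libraries was 0.48, and 48.1% of the 1596 pairs had r above 0.5. Between a member and a gene model outside the list the median was 0.22, with 23.2% above 0.5. Among the 39 members with a seedling mean of at least 10 RPKM the median was 0.67, against 0.24 with the 10659 other gene models at that level. The libraries share the split between run blocks, so these values describe it as well. Solyc03g007030.2.1 stood apart, with a median r of -0.49 to the other members.

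The seedling experiment compares 3 wild species with cultivated tomato. In S. pennellii, 17 of the 57 members tested differed from S. lycopersicum, against 18.7% of all gene models: 9 rose, against 11.8%, and 8 fell, against 6.95%. The median log2 difference was 0.11 over the members and 0.10 over all gene models. In block 1 alone these medians were 0.00 and 0.08, and in block 2 alone -0.06 and 0.04. With quantile normalization 9 members rose, against 9.76% of all gene models, and 11 fell, against 9.1%.

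Solyc01g034070.1.1 was found in every S. pennellii seedling library, with 4.18, 11.4 and 18.3 RPKM as lowest, median and highest values, and in no S. lycopersicum library. The 70 reads in S. pennellii put it at least 25.9-fold higher there, against a floor of 3 reads over the 7 S. lycopersicum libraries (limma adjusted p = 1.9e-09). Floors and counting intervals cover counting error only. This member passed the filter on low values through S. pennellii and S. habrochaites alone, so its p-value is given as a description. Solyc06g007890.2.1 had 24.1, 53.6 and 60.99 RPKM in S. pennellii, and 1.65, 6.38 and 11.3 RPKM in S. lycopersicum. The 2 species did not overlap, and the mean was 7.49-fold higher in S. pennellii (log2 difference 2.80 ± 0.33 SE, limma adjusted p = 6.1e-08).

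Solyc11g069960.1.1 fell in S. pennellii, with 1.16, 2.16 and 3.88 RPKM there and 7.90, 19.5 and 41.9 RPKM in S. lycopersicum. The ranges did not meet, and the log2 difference was -2.90 ± 0.35 SE (limma adjusted p = 1e-07). Solyc03g007030.2.1, the member that ran against the others between run blocks, had 11.9, 35.9 and 237 RPKM in S. pennellii and 105, 223 and 347 RPKM in S. lycopersicum. One S. pennellii library lay inside the S. lycopersicum range and the other 6 lay below it (log2 difference -2.36 ± 0.48 SE, limma adjusted p = 0.00021).

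In S. habrochaites, 12 of 57 members differed from S. lycopersicum. There 4 rose, against 4.06% of all gene models, and 8 fell, against 9.2%. The median was -0.33 over the members and -0.14 over all gene models. It was -0.08 against -0.09 in block 1 and -0.36 against -0.26 in block 2. Solyc01g099560.2.1 had 17.8, 30.4 and 63.4 RPKM in S. habrochaites and 0.882, 4.50 and 10.2 RPKM in S. lycopersicum, without overlap (log2 difference 2.88 ± 0.44 SE, limma adjusted p = 6.7e-06). Solyc06g007890.2.1 was again higher in the wild species, at 14.6, 35.6 and 47.2 RPKM in S. habrochaites (log2 difference 2.15 ± 0.33 SE, limma adjusted p = 7.8e-06).

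On the other side, Solyc09g092490.2.1 had 0, 1.39 and 7.06 RPKM in S. habrochaites and 7.89, 12.9 and 22.6 RPKM in S. lycopersicum, and no S. habrochaites library reached the S. lycopersicum range (log2 difference -2.56 ± 0.32 SE, limma adjusted p = 2.5e-07). Solyc01g110590.2.1 had 1.43, 6.39 and 10.2 RPKM in S. habrochaites and 13.3, 22.7 and 28.7 RPKM in S. lycopersicum, also without overlap (log2 difference -2.01 ± 0.37 SE, limma adjusted p = 8.4e-05).

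Fewer members differed in S. pimpinellifolium, the closest relative: 7 of 57, of which 4 rose, against 1.82% of all gene models, and 3 fell, against 2.83%. The median was 0.10 over the members and 0.00 over all gene models. It was 0.06 against -0.04 in block 1, 0.08 against -0.02 in block 2, and 0.00 against -0.04 with block as a covariate. Solyc09g005520.2.1 had 9.51, 32.1 and 44.95 RPKM in S. pimpinellifolium and 1.51, 2.57 and 5.49 RPKM in S. lycopersicum, a 9.11-fold difference in the mean with no overlap (log2 difference 2.73 ± 0.47 SE, limma adjusted p = 0.00011). Solyc01g099560.2.1, at 12.9, 24.1 and 50.6 RPKM, stood above every S. lycopersicum library here too (log2 difference 2.59 ± 0.44 SE, limma adjusted p = 8.7e-05). Among the 3 that fell, Solyc11g069960.1.1 had 3.88, 10.3 and 18.3 RPKM in S. pimpinellifolium, overlapping its range in S. lycopersicum (log2 difference -1.29 ± 0.35 SE, limma adjusted p = 0.011). Solyc02g063000.2.1 also overlapped, with 16.4, 25.6 and 55.4 RPKM in S. pimpinellifolium and 34.9, 53.2 and 94.1 RPKM in S. lycopersicum (log2 difference -1.15 ± 0.30 SE, limma adjusted p = 0.0092).

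The 3 comparisons with S. lycopersicum share its 7 libraries, so members named in more than one of them rest in part on the same values.

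**Figure D3:**
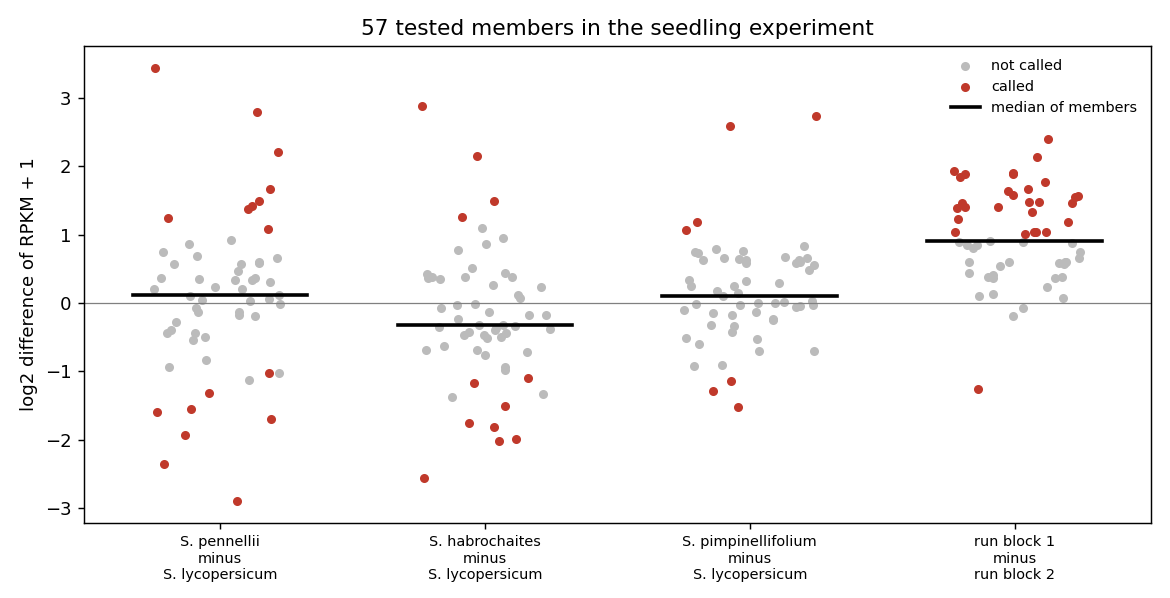
Log2 difference of each of the 57 tested members, on the log2(RPKM + 1) scale, between each wild species and S. lycopersicum and between run block 1 and run block 2 in seedlings; points are members, red where called, and bars are medians over the members. Called members lie on both sides of 0 in the 3 species comparisons (17, 12 and 7 of them), while 28 of the 29 called between blocks lie above 0.

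Between wild species, 13 members differed in S. pennellii against S. habrochaites: 10 rose, against 16.1% of all gene models, and 3 fell, against 4.68%. This split depended on the scaling. Median-ratio scaling gave 6 that rose, against 12.2% of all gene models, and 6 that fell, against 7.32%. Quantile normalization gave 5 that rose, against 10.2%, and 8 that fell, against 8.85%. The median of all gene models was 0.25 as deposited, 0.07 under median-ratio scaling and -0.04 under quantile normalization. Solyc09g092490.2.1 had 8.49, 15.2 and 19.7 RPKM in S. pennellii, above all its S. habrochaites values (log2 difference 2.65 ± 0.32 SE, limma adjusted p = 6.7e-08). Solyc01g034070.1.1 had 0, 1.08 and 4.65 RPKM in S. habrochaites, where it was found in 13 reads, and was 7.91-fold higher in S. pennellii (log2 difference 2.49 ± 0.34 SE, limma adjusted p = 6e-07). The S. pennellii libraries alone were enough for it to pass the filter on low values, so this p-value too is given as a description. Solyc03g007030.2.1 had 181, 242 and 500 RPKM in S. habrochaites and was lower in S. pennellii, with 1 library inside that range (log2 difference -2.87 ± 0.48 SE, limma adjusted p = 1.5e-05). Solyc10g005400.2.1 had 5.596, 16.9 and 31.1 RPKM in S. pennellii and, in S. habrochaites, 25.1, 40.6 and 85.4 RPKM (log2 difference -1.62 ± 0.45 SE, limma adjusted p = 0.0042), a difference not called within run block 2 (limma adjusted p = 0.16).

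Against S. pimpinellifolium, 21 members differed in S. pennellii, against 20.4% of all gene models: 10 rose, against 13.3%, and 11 fell, against 7.09%. With quantile normalization 6 rose, against 10.6%, and 13 fell, against 9.86%. Solyc02g092110.2.1 had 16.9, 22.6 and 35.6 RPKM in S. pennellii and 83.2, 156 and 234 RPKM in S. pimpinellifolium, with no overlap (log2 difference -2.56 ± 0.30 SE, limma adjusted p = 6.3e-08). Solyc03g007030.2.1 was lower in S. pennellii here too, against 135, 188 and 714 RPKM in S. pimpinellifolium (log2 difference -2.68 ± 0.48 SE, limma adjusted p = 3.8e-05). Solyc01g034070.1.1 had no read in S. pimpinellifolium and was at least 25.7-fold higher in S. pennellii (limma adjusted p = 1.8e-09). Here too it passed the filter on low values through S. pennellii and S. habrochaites alone, so its p-value is given as a description. Solyc06g007890.2.1, at 5.08, 10.4 and 25.5 RPKM in S. pimpinellifolium, was higher in S. pennellii by 2.05 ± 0.33 SE on the log2 scale (limma adjusted p = 8.7e-06).

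In S. habrochaites, 12 members differed from S. pimpinellifolium: 4 rose, against 3.7% of all gene models, and 8 fell, against 7.17%. Solyc02g092110.2.1 had 7.32, 27.2 and 47.5 RPKM in S. habrochaites, all below its S. pimpinellifolium values (log2 difference -2.62 ± 0.30 SE, limma adjusted p = 1e-07). Solyc03g120020.2.1 had 7.12, 12.8 and 43.6 RPKM in S. habrochaites and 46.4, 81.8 and 106 RPKM in S. pimpinellifolium (log2 difference -2.31 ± 0.29 SE, limma adjusted p = 3.8e-07). Solyc10g005400.2.1 was higher in S. habrochaites, against 1.405, 13.4 and 24.7 RPKM in S. pimpinellifolium, with no overlap (log2 difference 2.19 ± 0.45 SE, limma adjusted p = 0.00047). Solyc06g007890.2.1 was higher in S. habrochaites by 1.41 ± 0.33 SE on the log2 scale (limma adjusted p = 0.0017) and was not called within run block 2 (limma adjusted p = 0.15).

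A few members differed in 1 species from each of the other 3 in the same direction, counted by the same calls. They were singled out after their values had been seen. No share over all gene models is given for these lists, so they are not read as an excess. In S. pennellii, Solyc11g012220.1.1, Solyc01g034070.1.1 and Solyc10g086270.1.1 were higher, and Solyc11g069960.1.1 and Solyc03g007030.2.1 lower. Solyc11g012220.1.1 rested on few reads, with 3, 4, 7, 0, 0, 2 and 0 in the 7 S. pennellii libraries. In S. habrochaites, Solyc10g005400.2.1 was higher and Solyc09g092490.2.1 lower. In S. pimpinellifolium, Solyc10g085870.1.1 and Solyc09g005520.2.1 were higher and Solyc02g079490.2.1 lower. In S. lycopersicum, Solyc11g069960.1.1 was higher and Solyc01g099560.2.1 and Solyc07g005680.2.1 lower. By mean level over 7 libraries, S. pennellii was the highest species for 25 of the 57 members (against 42.98% of all gene models), S. pimpinellifolium for 21 (21.7%), S. habrochaites for 4 (14.5%) and S. lycopersicum for 7 (20.8%). Block 1 holds 4 of the 7 libraries of S. pennellii and of S. pimpinellifolium, and 3 of the 7 of S. habrochaites and of S. lycopersicum. With blocks 1 and 2 weighted equally, a weighting added after seeing the data, the counts were, in that order, 21 (42.01%), 17 (20.5%), 5 (14.4%) and 14 (23.1%).

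The species differences were recomputed within run blocks. Against S. lycopersicum, block 1 called 16 members for S. pennellii (19.6% of all gene models) and block 2 called 18 (18%). The counts were 15 (12.8%) and 13 (14.4%) for S. habrochaites, and 9 (4.85%) and 5 (4.41%) for S. pimpinellifolium. Between wild species, S. pennellii against S. habrochaites gave 14 (19.3%) and 12 (21.9%), S. pennellii against S. pimpinellifolium 18 (21.2%) and 21 (20%), and S. habrochaites against S. pimpinellifolium 14 (10.4%) and 14 (9.78%). With block as a covariate the 6 comparisons called, in that order, 21 (19%), 16 (14.3%), 8 (5.32%), 16 (21.1%), 22 (20.9%) and 15 (11.1%) members. An F test over the 4 species in limma, with no limit on size, called 34 of 57 members (59.6%), against 65.8% of all gene models, and 38 had an unadjusted p under 0.05, against 69.4%. With block as a covariate it called 51 (89.5%), against 74.4%.

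The tissue experiment compares S. pennellii with M82 in 6 tissues. These 24 libraries also chose the members, although by tissue and not by species. Averaged over the tissues, 9 of 60 members differed: 6 rose in S. pennellii, against 3.98% of the 22512 gene models tested, and 3 fell, against 6.61%. The median log2 difference was 0.07 over the members and -0.10 over all gene models. Median-ratio scaling gave 7 that rose, against 4.75%, and 1 that fell, against 5.52%, and quantile normalization 8, against 4.97%, and 2, against 5.3%. The count was 5 without the S. pennellii shade inflorescence library and 5 without the M82 sun seedling library.

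Solyc01g034070.1.1 had reads in 11 of the 12 S. pennellii libraries and in none of the 12 M82 libraries. Its S. pennellii values ran from 0 in the sun stem to 21.02 RPKM in the sun meristem. The 94 reads put it at least 26.8-fold higher in S. pennellii, against a floor of 3 reads over the 12 M82 libraries (limma adjusted p = 7.3e-07). It passed the filter on low values through S. pennellii alone, so this p-value is given as a description. Solyc06g007890.2.1 averaged 13.8 RPKM over the S. pennellii libraries and 0.674 RPKM over those of M82 (log2 difference 2.29 ± 0.36 SE, limma adjusted p = 0.00017). Solyc09g092490.2.1 averaged 2.94 RPKM over the S. pennellii libraries and 12.1 RPKM over those of M82 (log2 difference -1.12 ± 0.29 SE, limma adjusted p = 0.0071), and the call was lost without the M82 shade inflorescence or the M82 sun root library. Solyc05g050550.2.1 averaged 2.25 RPKM in S. pennellii and 6.65 RPKM in M82 (log2 difference -1.11 ± 0.39 SE, limma adjusted p = 0.037), a call lost under 21 of the alternatives (limma adjusted p up to 0.084).

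In the vegetative meristem itself, with 2 libraries of each species, 8 members differed, against 5.68% of all gene models: 6 rose in S. pennellii, against 2.73%, and 2 fell, against 2.95%. The median log2 difference was 0.85 over the members and 0.00 over all gene models, and 46 of 60 members were above 0. Both S. pennellii libraries lay above both M82 libraries for 40 members, against 24.9% of gene models, and below them for 4, against 26.8%. These meristem values also entered the score, and a high level in 1 species alone could raise it. What is given for the meristem is therefore a description and no independent test of the members. The count rests on single libraries: it was 2 without the S. pennellii shade, 3 without the S. pennellii sun, 4 without the M82 shade and 2 without the M82 sun meristem library.

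Solyc06g007890.2.1 had 52.4 RPKM under shade and 45.8 RPKM under sun in S. pennellii meristems, and 2.45 and 0 RPKM in those of M82. The 130 reads in S. pennellii and 3 in M82 gave a ratio of reads per library total of 33.05, with an exact 95% interval of 11.1 to 162 from counting error (limma adjusted p = 0.0042). Solyc08g007580.2.1 had 19.3 and 24.6 RPKM in S. pennellii and 1.42 and 0 RPKM in M82, a ratio of 24.4 with an interval of 6.49 to 206 from 64 and 2 reads (limma adjusted p = 0.0092). Solyc09g092490.2.1 was lower in S. pennellii, with 8.77 and 4.23 RPKM there and 71.6 and 39.1 RPKM in M82 (log2 difference -2.92 ± 0.71 SE, limma adjusted p = 0.024). Solyc11g069960.1.1 was lower as well, with 6.60 and 8.01 RPKM in S. pennellii and 44.4 and 18.1 RPKM in M82 (log2 difference -1.83 ± 0.42 SE, limma adjusted p = 0.018). The calls of Solyc08g007580.2.1, Solyc09g092490.2.1 and Solyc11g069960.1.1 were each lost when any 1 of the 4 meristem libraries was left out, and that of Solyc06g007890.2.1 without the S. pennellii shade or the M82 sun library.

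In the seedlings of the same experiment, 9 members differed: 8 rose in S. pennellii, against 3.75% of all gene models, and 1 fell, against 6.97%. The median log2 difference was 0.34 over the members and -0.14 over all gene models. Median-ratio scaling and quantile normalization each gave 10 that rose, against 5.89% and 5.73% of all gene models, and 1 that fell, against 5.33% and 5.53%. The count was 2 without either S. pennellii seedling library and 2 without the M82 shade one. Solyc04g050730.2.1 had 255 RPKM under shade and 189 RPKM under sun in S. pennellii seedlings, and 36.1 and 18.8 RPKM in those of M82, an 8.10-fold difference in the mean (log2 difference 3.03 ± 0.46 SE, limma adjusted p = 0.0008). Solyc06g007890.2.1 had 10.8 and 16.1 RPKM in S. pennellii; M82 had no read, which puts it at least 5.44-fold higher against a floor of 3 reads over the 2 libraries (limma adjusted p = 0.011). Solyc11g069960.1.1 fell, with 2.21 and 0.556 RPKM in S. pennellii and 12.05 and 6.16 RPKM in M82 (log2 difference -2.11 ± 0.42 SE, limma adjusted p = 0.0053).

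The species difference was set beside that of the seedling experiment, which used other libraries of the same accessions. Of the 6 members that rose in S. pennellii meristems, 5 were tested there and all 5 rose in S. pennellii seedlings against S. lycopersicum. Of the 551 gene models that rose in S. pennellii meristems and were tested in both experiments, 76.04% did so. Among the 5 members, Solyc01g034070.1.1 had no read in S. lycopersicum seedlings, so it could only be called higher. Solyc11g012220.1.1 rested on few reads in seedlings. Of the 2 that fell, Solyc11g069960.1.1 fell in seedlings too, while Solyc09g092490.2.1 had means of 14.6 RPKM in S. pennellii and 14.1 RPKM in S. lycopersicum seedlings. Across the 57 members the log2 differences in the meristem and in the seedling experiment had a Pearson's r of 0.66 and a Spearman's rho of 0.60, and 37 had the same sign. Across the 19438 gene models tested in both experiments r was 0.60 and rho 0.50, and 66.6% had the same sign. These are descriptions across genes, and nothing particular to the members is read from them.

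**Figure D4:**
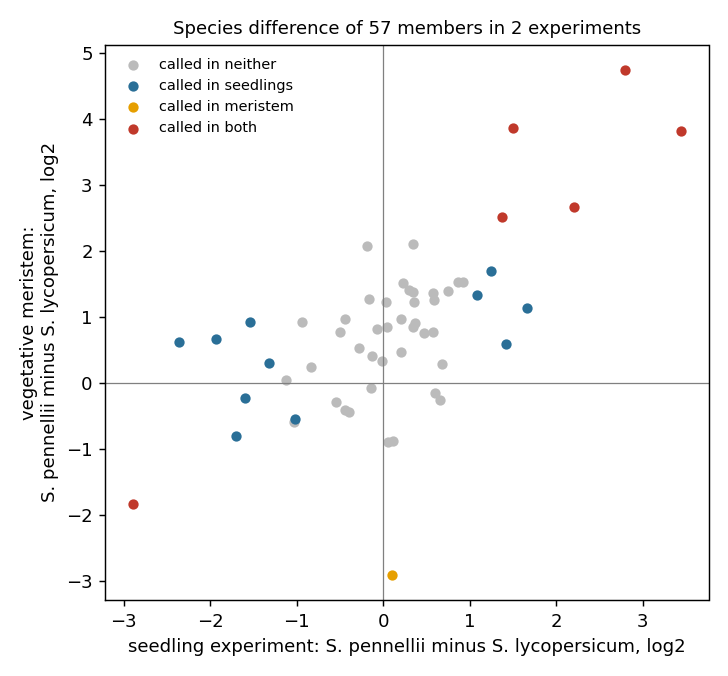
Log2 difference of each of 57 members between S. pennellii and S. lycopersicum on the log2(RPKM + 1) scale, in the seedling experiment (horizontal, 7 libraries of each species) and in the vegetative meristem (vertical, 2 of each); points are members, coloured by where they were called. For 37 members both differences have the same sign, and 1 member was called in the meristem alone.

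The species difference in the meristem was also set against that in the other 5 tissues. The meristem excess over those tissues chose the members, so this contrast is no independent test of them and is given as a description. It was called for 1 member, Solyc01g006570.1.1, against 0.129% of all gene models (0.0755% in its direction, higher, and 0.0533% lower). This member had 6.67 and 5.15 RPKM in the shade and sun meristems of S. pennellii, from 9 reads in all, and no read in those of M82, at least 2.23-fold higher against a floor of 3 reads over the 2 libraries. Elsewhere in the tissue experiment it was found in the S. pennellii sun leaf at 2.53 RPKM only, so it passed the filter on low values through S. pennellii alone. The difference of differences was 2.60 ± 0.43 SE on the log2 scale (limma adjusted p = 0.036), and it was not called under 22 of the alternatives, with limma adjusted p up to 0.34. No other member was called.

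Light was compared as shade minus sun over the tissue experiment. No member was called by limma in S. pennellii, in M82, on average over both species, in the vegetative meristem or for the difference in response between the species. Across all gene models, 0.00888% were called in S. pennellii and 0.0% in the other light comparisons. An unadjusted p under 0.05 was found for 5 members in S. pennellii (6.21% of all gene models), 3 in M82 (5.5%), 2 on average (4.66%), 2 in the meristem (1.37%) and 5 for the difference in response (7.07%). A fit of limma voom to reads recovered from the values called 0 members in each of these comparisons.

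The direction of the members' light difference was not the same in the 2 species. Of 60 members, 17 were above 0 in S. pennellii and 50 in M82. The median log2 difference was -0.24 in S. pennellii (-0.05 over all gene models) and 0.32 in M82 (0.07 over all). The median difference in response, S. pennellii minus M82, was -0.56 over the members and -0.13 over all gene models, and 52 members were below 0. With no member called, these counts are a description of libraries with 1 per combination. The same libraries entered the score, and no shares by sign over all gene models are given.

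By tissue, the M82 shade library was above the sun library for 53 members in leaf (median log2 difference 1.30, against 0.26 over all gene models), 50 in the meristem (0.73, against 0.00) and 41 in seedling (0.64, against 0.14). It was below for 42 members in root (median -0.74, against -0.15) and 42 in inflorescence (-0.53, against -0.07). In stem it was above for 34 members (0.34, against 0.21). In M82 leaf the member median was 7.54 RPKM under shade and 2.18 RPKM under sun. In S. pennellii the order in leaf was the other way, with a member median of 4.51 RPKM under shade and 7.51 RPKM under sun, and 45 members lower under shade (median -0.79, against 0.07 over all gene models). In its meristem 38 members were lower under shade and 22 higher (median -0.15, against -0.10). Shade was below sun for 36 members in seedling (-0.36, against -0.05) and 34 in stem (-0.34, against -0.15). In root 26 members were above and 17 below, and in inflorescence 28 above and 25 below. Both medians were 0.0 for the members and for all gene models. Each of these values compares 1 library with 1 other that also entered the score, and the members in a count are not independent of each other.

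**Figure D5:**
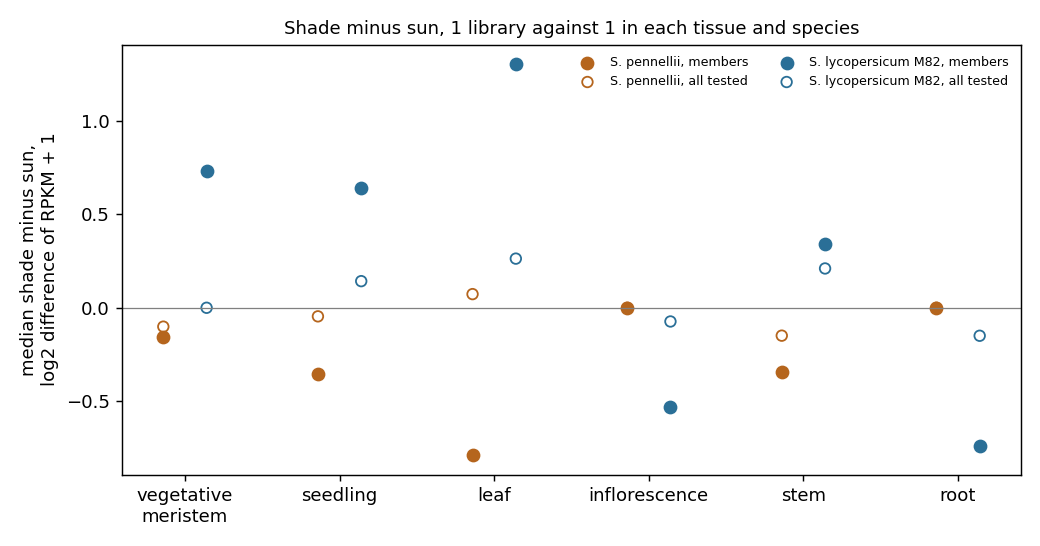
Median shade minus sun log2 difference, on the log2(RPKM + 1) scale, in each tissue of each species, over the 60 members (filled) and over all gene models tested (open, hidden behind the filled point at 0 in S. pennellii inflorescence and root), 1 library per light treatment. The members' median is 1.30 in M82 leaf and -0.79 in S. pennellii leaf, while all gene models lie at 0.26 and 0.07.

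Solyc11g069960.1.1 had the smallest p among members higher under shade in M82. It had 44.4 RPKM under shade and 18.1 RPKM under sun in the meristem, 12.05 and 6.16 RPKM in seedling, 4.71 and 0.833 RPKM in leaf, and 1.07 and 1.17 RPKM in inflorescence. Shade was above sun in 5 of the 6 tissues, with an average log2 difference of 0.77 ± 0.25 SE (limma adjusted p = 0.86). In S. pennellii the member with the smallest p was Solyc04g074750.2.1, lower under shade in all 6 tissues, with 16.99 RPKM under shade and 53.2 RPKM under sun in leaf (log2 difference -0.75 ± 0.23 SE, limma adjusted p = 0.58).

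In the meristem the smallest p was that of Solyc09g075470.2.1, the member with the highest score. Its shade values of 12.9 RPKM in S. pennellii and 19.7 RPKM in M82 lay above its sun values of 3.68 and 1.97 RPKM, from 59 and 7 reads (log2 difference 2.19 ± 0.63 SE, limma adjusted p = 1). For the difference in response, Solyc03g034070.1.1 had the smallest p among members more negative in S. pennellii (-1.19 ± 0.42 SE on the log2 scale, limma adjusted p = 0.67). In leaf it had 21.8 RPKM under shade and 55.0 RPKM under sun in S. pennellii, and 75.6 and 35.9 RPKM in M82.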

How the data were processed

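The deposited table gives RPKM per gene model for 52 libraries. Per the submitters' processing notes the authors used CASAVA 1.4 and BWA 0.5.7; reference genome, annotation, counting rules and strandedness: not given in the sources used here, so reads of overlapping or near-identical genes may be shared.

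Every RPKM value was a whole multiple of the worth of 1 read, within a tolerance of 0.02 reads (100.0% of values), which gave the reads behind each value and the library totals, 1477052 to 5556059. The worth of 1 read was searched for in each gene model within that tolerance. The share is therefore no check for gene models with reads in few libraries. On a simulated table, 99.99% of values gave back their reads. Limits for genes with no read use 3 reads. Columns were matched to samples by title and run blocks taken from the run numbers in the labels.

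Members were the 60 gene models with the highest score; members, comparisons and gene lists were chosen with earlier results of these data known. The lists of markers and pathway genes planned by name could not be used, since 0 IDs matched. Tests used limma 3.58.1 in R 4.3.3 on log2(RPKM + 1), with trended and robust variance, over all gene models with RPKM of at least 1 in 7 of the seedling libraries or in 2 of the libraries of the tissue experiment. The seedling fit held the 4 species. The tissue fit held a mean for each tissue of each species and a light term for each species (10 residual degrees of freedom), or 1 light term per tissue (6) for light in the meristem. Differences are on the log2(RPKM + 1) scale, which understates changes of low genes. Calls needed a Benjamini-Hochberg adjusted p under 0.05 and a log2 difference of at least 1.

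Named members are the 2 highest scores, the 2 highest meristem means, the ranks at the edge, the 2 highest and lowest seedling means and, in each comparison, up to 2 called members per direction with the largest difference among those averaging at least 5 RPKM in the higher group, or without calls the smallest p in each direction. Other members named were chosen after their values were seen.

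Alternatives were a pseudocount of 0.1, no filter, median-ratio scaling, quantile normalization, limma voom on the recovered reads, no light term, run block as a covariate or alone, and leaving out each library. On simulated data, 97.0% of 199 gene models changed 4-fold were recovered for S. pennellii against S. lycopersicum seedlings (3 false calls among 19635), 98.0% of 200 for the mean of 6 tissues (2 false calls among 22400) and 68.5% of 200 for the meristem (10 false calls among 22400). The simulation used the same fixed spread for all gene models and no run block, and left gene models of low mean level unchanged. Its rates therefore do not carry over to seedlings split by block or to low members.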

Additional observations from a re-analysis of the deposited data

Results flagged for a closer look

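In groups of 4 to 7 libraries, 14 of 115 groups tested over the named members held a value that stood apart from the rest of its group by more than Dixon's 95% limit, a limit that chance passes in about 1 in 20 groups. Of these, 3 were the M82 shade meristem library, with 19.96 RPKM for Solyc02g079490.2.1 (next 10.5), 1222 RPKM for Solyc04g054740.2.1 (next 822) and 20.5 RPKM for Solyc05g050550.2.1 (next 7.65). The meristem groups hold 1 library of each species and light treatment, so they are not replicates. The seedling groups are split by run block, so the rate of 1 in 20 need not hold in either.

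In S. pennellii seedlings, replicate 27 stood high with 33.1 RPKM for Solyc01g110590.2.1 (next 14.9) and 1065 RPKM for Solyc02g086740.1.1 (next 686), and replicate 25 with 237 RPKM for Solyc03g007030.2.1 (next 69.2). In S. habrochaites, replicate 18 stood high with 43.6 RPKM for Solyc03g120020.2.1 (next 20.2) and 2.97 RPKM for Solyc09g075470.2.1 (next 1.27), and replicate 17 with 7.06 RPKM for Solyc09g092490.2.1 (next 2.19). In S. pimpinellifolium, replicate 13 stood high with 55.4 RPKM for Solyc02g063000.2.1 (next 31.6), 25.5 RPKM for Solyc06g007890.2.1 (next 12.5) and 14.2 RPKM for Solyc09g092490.2.1 (next 8.33). Replicate 9 had 714 RPKM for Solyc03g007030.2.1 (next 377), and replicate 8 had 2.91 RPKM for Solyc01g006570.1.1, which was at 0 in the other 6.

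The species difference of Solyc01g006570.1.1 was larger in the vegetative meristem than in the other 5 tissues, by 2.60 ± 0.43 SE on the log2 scale (limma adjusted p = 0.036), from 9 reads in S. pennellii and 0 in M82. It passed the filter on low values through S. pennellii alone, and its meristem excess over the other tissues chose it, so the contrast is no independent test. It was not called under 22 of the alternatives (limma adjusted p up to 0.34).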

How the results depend on the processing

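The list depends on how it is drawn: 11 of the 60 members stayed with a pseudocount of 0.1 in the score, 36 with the median of 4 libraries, 17 with seedling tissue left out, and 38 to 49 without 1 meristem library (38 without the S. pennellii sun library). In the meristem, 8 of 60 members differed between species, against 5.68% of all gene models. With a pseudocount of 0.1 the count was 3 of 60, against 4.64%. With limma voom it was 13, beside 1841 of 22512 gene models, and without 1 library it was 2 to 9. Counts without 1 library are given with no share over all gene models and describe only how far the count moved. The larger species difference in the meristem, called for 1 member, was called for 0 with a pseudocount of 0.1, median-ratio scaling, quantile normalization or limma voom, and for 0 to 2 without 1 library (2 without the M82 shade root). Without 1 library, the mean of 6 tissues gave 5 to 9 and tissue-experiment seedlings 2 to 10. The 6 seedling species comparisons gave 14 to 18 (S. pennellii), 10 to 15 (S. habrochaites) and 6 to 8 (S. pimpinellifolium) against S. lycopersicum, 9 to 16, 17 to 21 and 10 to 13 between wild species, and the run blocks 26 to 29. Of single-member results, 1545 recomputed values kept their direction and their side of the threshold, 71 fell short of it and 0 changed direction. The 1545 include light results that were never called, for which staying uncalled counts as unchanged. They also include fits that left out a library of neither group compared. The total is therefore no measure of how firmly the calls hold. The causes of the changes under these settings were not tested. No paired analysis was possible because the labels give no replicate numbers shared between groups. Depth limits members under 100 reads, and p-values measure spread between libraries that may be technical.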
